A study of Mus musculus with 14 samples.

Results

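Semaphorins, ephrins and their receptors were followed through embryoid body (EB) differentiation of mouse embryonic stem cells (ESCs). Members were taken by gene symbol from the deposited table of counts per 1000000 (CPM), and comprised 7 secreted class 3 semaphorins, 13 semaphorins of classes 4 to 7, 2 neuropilins, 9 plexins, 5 ephrin-A and 3 ephrin-B ligands, 8 EphA and 5 EphB receptors. These are 52 of the 16181 genes listed there. Epha6 also belongs to the family but is not in that table, and had 14 reads over all libraries in the table of counts.

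PolyA RNA of 2 mouse ESC lines was sequenced, one with a short hairpin against LacZ as the control (shLacZ) and one with a hairpin against Dis3l2 (shDis3l2), an exoribonuclease that degrades uridylated RNA. The paper states that the ESCs used for differentiation carried a renal reporter, Osr1-GFP. Undifferentiated cells grown with LIF and 2i gave the d0 libraries, and EBs formed as hanging drops in serum after LIF and 2i were removed gave those of alternate days up to d12 (d2, d4, d6, d8, d10, d12). The 14 libraries, 1 for each line on each day, came from 1 line per hairpin, and no day was replicated. Whether either line was 1 clone was not given in the sources used here.

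Semaphorins are ligands that bind plexins, and most class 3 members need a neuropilin as the coreceptor that holds the ligand while the plexin signals. Ephrin-A ligands are tethered to the membrane by a lipid anchor and ephrin-B ligands span it, and both engage Eph receptor tyrosine kinases on the neighbouring cell, so that signals can pass both ways. In the embryo these systems steer axons, neural crest cells and vessels, and they sort cells at tissue boundaries.

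The libraries held between 7178712 (shLacZ d4) and 39888099 reads (shLacZ d0) counted on genes, and a floor of 3 reads was 0.0752 CPM in the larger of these and 0.418 CPM in the smaller. CPM below are per 1000000 reads counted on all genes of a library. Dis3l2 itself stood at 13.7% of its shLacZ level in the shDis3l2 library of d0, at 28.1% at d2, 32.1% at d4 and 55.2% at d6. At d8 it was at 97.1% (95% interval 83.7 to 113), at d10 at 95% (78.8 to 115) and at d12 at 75.4% (60.9 to 93.4), intervals that cover counting error only. The libraries labelled shDis3l2 at d8 and d10 thus did not show lower Dis3l2 mRNA beyond counting error, and directions given for those days are between libraries as labelled. Cell type markers also differed between the lines. From d6 to d12 the summed CPM of 8 mesenchyme markers ran from 377 to 1707 in shLacZ and from 989 to 15694 in shDis3l2, with 7 of the 8 called higher by the edgeR test used below and Dcn, a matrix proteoglycan, at 0 in both d0 libraries. The 7 visceral endoderm markers summed to between 2830 and 6390 CPM in shLacZ and between 547 and 1765 CPM in shDis3l2, and all 7 were called lower. The 7 pluripotency markers ran from 378 to 539 CPM in shLacZ and from 64.1 to 368 CPM in shDis3l2, with 6 called lower. The 6 cardiomyocyte markers ran from 15 to 34.2 CPM in shLacZ and from 16.5 to 122 CPM in shDis3l2, with 4 called higher and Nppa, an atrial hormone, at or below 0.616 CPM in every library. The 7 neural markers ran from 22.2 to 77.2 CPM in shLacZ and from 21.3 to 107 CPM in shDis3l2, with 3 called lower, and were higher in shDis3l2 at d6 (107 against 31) and lower at d12 (36.8 against 77.2). The 6 blood markers ran from 9.03 to 806 CPM in shLacZ and from 37.6 to 1304 CPM in shDis3l2, with 2 called higher. The part of these markers in the differences below was not tested, and in bulk RNA more cells of a type and more RNA per cell cannot be told apart. The 5 neural crest markers summed to at most 34.5 CPM in these 8 libraries, and Sox10, from this list, was at or below 0.242 CPM in all of them. Of the 4 crest markers tested, 2 were called lower, Erbb3 and Foxd3.

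Per kilobase of gene length, as reads per kilobase and 1000000 reads (RPKM), the leading members changed with the day. At d0 the highest level was that of Efna4 in both lines, 29.4 RPKM in shLacZ and 22.7 RPKM in shDis3l2. Plxna1 led at d2, with 38.3 and 31.1 RPKM, and Epha1 at d4, with 58.0 and 79.6 RPKM. From d8 on Plxna1 led in shLacZ and Plxnb2 in shDis3l2. Over the 14 libraries the highest medians of the role groups were 31.4 RPKM for Plxna1, 21.4 for Efna4, 21.0 for Efnb1, 20.1 for Ephb4, 14 for Epha2, 12.2 for Nrp1, 10.4 for Sema4c and 2.16 for Sema3f. The highest median of the class 3 semaphorins thus lay below those of the plexins and neuropilins.

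Most members were higher in the late EBs than in the stem cells. Between d0 and the mean of d6 to d12, 38 of 51 members tested rose and 9 fell (edgeR quasi-likelihood test with line as a block, Benjamini-Hochberg adjusted p under 0.05), against 41.3% and 35.4% of all genes tested. By d2 24 had risen and 11 had fallen, against 34.5% and 31% of all genes. The days of 1 series stand in for replicates in these tests, which they are not, so the p-values measure the spread between these libraries and do not extend to other cultures. Without scaling between libraries the median of all genes moved from 0.25 to 0.82 on the log2 scale for d6 to d12 and from 0.12 to 0.71 for d2, and the members that fell numbered 5 and 7.

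All 8 plexins tested rose by d6 to d12, as did both neuropilins and all 3 ephrin-B ligands. Nrp1, which had 0 reads in shLacZ at d0 and 4 in shDis3l2, was at least 1923-fold higher at d12 in shLacZ, taking 3 reads per library as the floor. Sema6d, with 0 reads in both d0 libraries, was at least 945-fold higher at d12 in shLacZ and at least 407-fold higher in shDis3l2. Efnb2, an arterial ephrin, had risen 64.3-fold by d2 in shLacZ and 44.6-fold in shDis3l2. In the test over both lines, the semaphorins that fell between d0 and d6 to d12 were Sema3b, Sema4a, Sema4b, Sema4d, Sema4f, Sema5b and Sema6c, and among the ephrins and Eph receptors Efna4 and Epha10 fell. In CPM, Sema4b, Sema4f and Efna4 were below d0 on 4 of 4 late days in both lines. Sema5b and Epha10 were below d0 on 4 of 4 late days in shLacZ but above it on 3 of 4 in shDis3l2. In shDis3l2 Sema5b went from 7.48 CPM at d0 to between 2.92 and 32.7 CPM, and Epha10 from 15 reads to between 7 and 15. These CPM are not scaled between libraries, and the TMM scaling factor of shDis3l2 was 0.66 at d0 and 1.04 to 1.1 from d6 to d12. Counts of days above or below d0 can therefore differ after scaling. Sema3b and Sema6c were below d0 on 4 of 4 late days in shLacZ and on 3 of 4 in shDis3l2. Sema4d was below d0 on 3 of 4 late days in both lines, and Sema4a on 3 of 4 in shLacZ and 2 of 4 in shDis3l2. Of the members that fell, Sema4d, Sema5b, Efna4 and Epha10 did not pass without scaling between libraries, and Sema4a and Sema5b did not pass without d6.

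From d6 to d12, 50 of the 52 members passed the filter on low counts, of which 22 were higher in shDis3l2 and 9 were lower (edgeR quasi-likelihood test, day as a block, Benjamini-Hochberg adjusted p under 0.05), against 19.6% and 18.7% of all 17164 genes tested. The median log2 difference was 0.45 over the members and 0.02 over all genes. For 14 of the 22 the counting interval of the daily ratio lay above 1 on 4 of 4 days, and for 6 of the 9 it lay below 1. These intervals were not counted over all called genes, so the counts do not set the members apart. The other 8 higher members had at least 1 day on which the lines were not apart beyond counting error, such as d6 for Epha3 (15 reads in shLacZ and 12 in shDis3l2) and Epha8 (1 read each). The count of higher members fell to 14 without d10 and to 16 without d8, and ran up to 25 without the filter on low counts. Over all genes the count higher was 3365 in the main fit, 1695 of 16739 without d10 and 1784 of 16647 without d8. Without the filter it was 3601 of 30873. Here 4 days of 1 series, which are not replicates or separate cultures, carry the test.

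**Figure D1:**
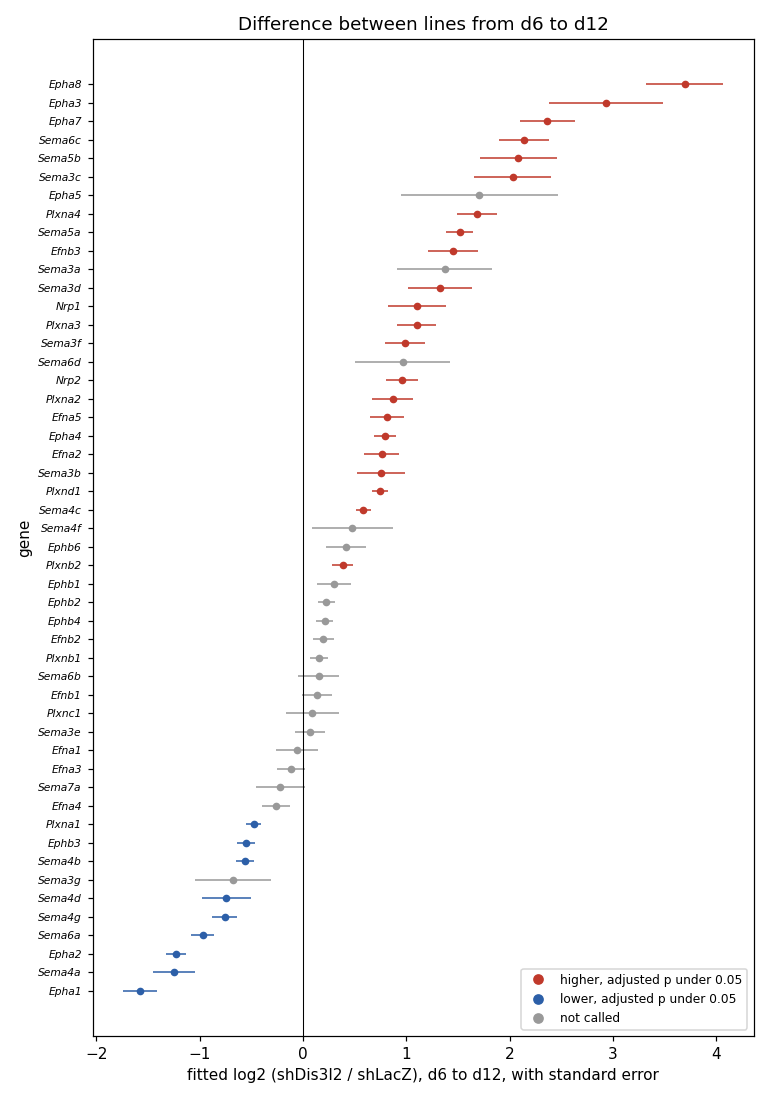
Fitted log2 difference between shDis3l2 and shLacZ from d6 to d12 for the 50 members tested, with its standard error, in rising order. Red points are the 22 members called higher and blue points the 9 called lower, with Epha8 at 3.70 at one end and Epha1 at -1.58 at the other.

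On single days, members at least 3-fold apart between the lines and with at least 1 CPM in 1 of the 2 libraries were counted, with no test. At d0 2 of 34 members compared were, Efna1 and Sema4a, both lower in shDis3l2, against 2.96% of all protein-coding genes compared. At d2 1 of 48 was, Sema5a, which was lower (0.258% of all), at d4 0 of 48 (2.08%) and at d6 3 of 46 (6.99%), with Plxna4 and Sema6d higher and Epha1 lower. At d8 9 of 48 were higher, against 5.5% of all genes compared, and 0 were lower, against 3.77%. At d10 14 of 50 were higher (8.68% of all) and 3 lower (3.17%). At d12 11 of 50 were higher (8.17%) and 0 lower (1.42%). Epha3, Epha7, Epha8, Sema3a, Sema3c, Sema5b and Sema6c were at least 3-fold higher on each of d8, d10 and d12. The share of all genes higher on each of these days was not counted.

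**Figure D2:**
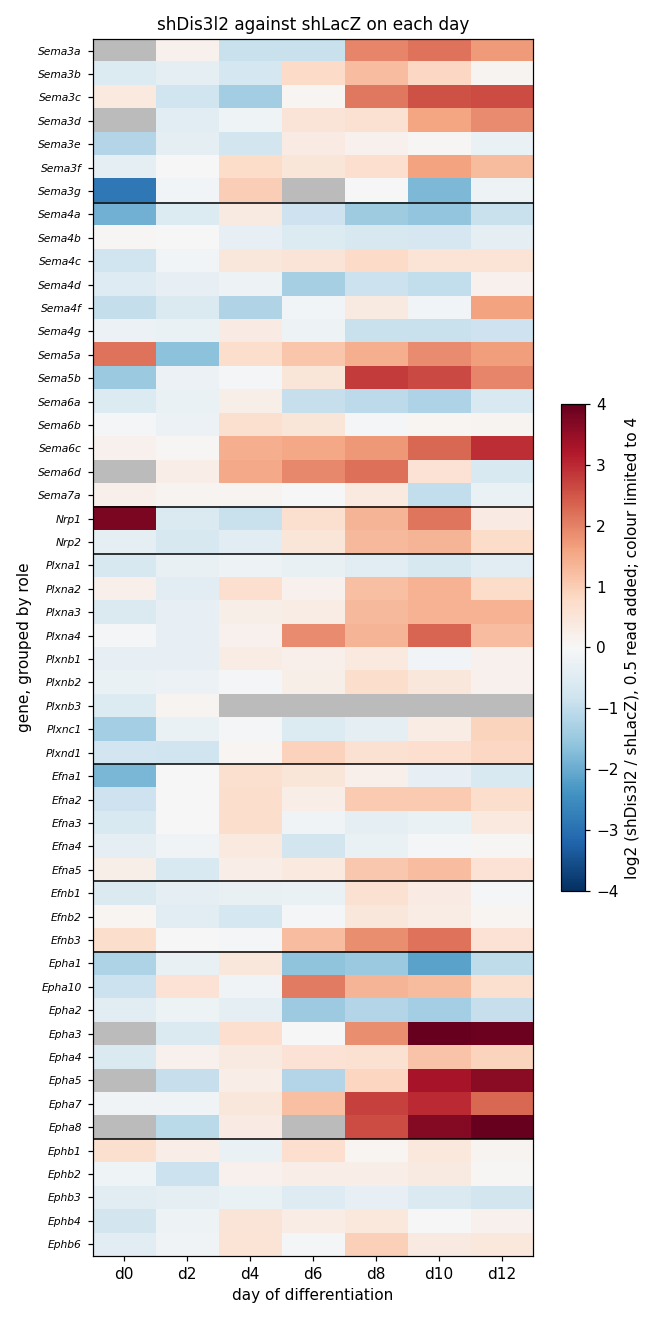
Log2 ratio of shDis3l2 to shLacZ for the 52 members (rows, from the top class 3 semaphorins, class 4 to 7 semaphorins, neuropilins, plexins, ephrin-A, ephrin-B, EphA and EphB, separated by lines) on 7 days (columns), with 0.5 read added to both libraries. Grey marks days on which neither library had more than 3 reads, and colour stops at a log2 ratio of 4. Red is densest in d8, d10 and d12, where 9, 14 and 11 members were at least 3-fold higher.

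Class 3 semaphorins are secreted guidance cues, and Sema3c, which steers cardiac neural crest and outflow tract cells, was higher in late EBs of the shDis3l2 line. In the order d0, d2, d4, d6, d8, d10, d12, used for all series of values below, Sema3c was at 0.376, 6.75, 6.69, 1.8, 2.6, 3.63 and 4.86 CPM in shLacZ and 0.491, 3.88, 2.56, 1.88, 11.3, 21.7 and 30.0 CPM in shDis3l2. The lines were close at d6 and apart from d8 on, after shLacZ had been the higher line at d2 and d4. The difference from d6 to d12 was 2.03 ± 0.38 (SE), edgeR adjusted p = 0.00654, and without d10 it was 1.80 with an edgeR adjusted p of 0.0507. Sema3f, a repellent that acts through Nrp2, was at 3.53, 5.08, 6.27, 12, 14.6, 10.4 and 16.3 CPM in shLacZ and 2.76, 5.05, 10.4, 16.7, 23, 31.6 and 39.1 CPM in shDis3l2. All 4 late shDis3l2 values exceeded all 4 of shLacZ, with a log2 difference of 0.98 ± 0.20 (SE), edgeR adjusted p = 0.00845. Sema3d, a cue of endothelial and cardiac cells, was lower throughout, at 0.0752, 1.1, 2.37, 0.526, 0.651, 1.69 and 2.38 CPM in shLacZ and 0, 0.794, 2.13, 0.754, 1.02, 5.21 and 8.99 CPM in shDis3l2. It was higher in shDis3l2 on 4 of 4 late days with overlapping ranges (1.32 ± 0.31 (SE), edgeR adjusted p = 0.0156), but the difference was 1.18 with an edgeR adjusted p of 0.0949 without d10 and 1.04 with an edgeR adjusted p of 0.0739 without d12. Sema3b passed as well (0.76 ± 0.23 (SE), edgeR adjusted p = 0.0387) and did not pass without d6, d8 or d10, with adjusted p of 0.0648, 0.188 and 0.135, or with DESeq2 (0.0657).

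Sema3a, the founding repellent of sensory axons, was at 7.29, 8.46, 7.02 and 9.82 CPM in shLacZ and 3.86, 32.8, 32.2 and 32.3 CPM in shDis3l2 from d6 to d12, lower in shDis3l2 at d6 and higher on the other 3 days. Its log2 difference was 1.37 ± 0.46 (SE), edgeR adjusted p = 0.0534, so it was not called, and without d6 the adjusted p was 0.000164. Sema3e, a Plxnd1 ligand of vessels, was highest at d4 in both lines, with 37.5 CPM in shLacZ and 22.5 CPM in shDis3l2, and Sema3g stayed at or below 6.94 CPM. Neither was called from d6 to d12, with edgeR adjusted p of 0.752 for Sema3e and 0.191 for Sema3g.

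Semaphorins of classes 4 to 7 are membrane bound, and here the lines differed in both directions, with 4 of 13 higher in shDis3l2 and 5 lower. Sema5a, a cue that can attract or repel axons, was at 0.0251, 3.71, 15.3, 39.5, 28.2, 27.7 and 40.0 CPM in shLacZ and 0.151, 1.17, 25.3, 85, 77.6, 103 and 126 CPM in shDis3l2. The late ranges of the lines did not overlap, and the difference was 1.52 ± 0.13 (SE), edgeR adjusted p = 0.000557. Its relative Sema5b was at 20.9, 6.33, 2.93, 2.1, 4.73, 1.82 and 2.18 CPM in shLacZ and 7.48, 5.37, 2.8, 2.92, 32.7, 11.7 and 8.62 CPM in shDis3l2. Levels in shLacZ were highest in the stem cells, while the shDis3l2 line peaked at d8, with a late difference of 2.08 ± 0.37 (SE), edgeR adjusted p = 0.00568. Sema6c was at 22.4, 5.04, 7.52, 2.93, 4.32, 4.36 and 4.07 CPM in shLacZ and 25.2, 5.19, 20.9, 8.67, 14.5, 21.7 and 31.7 CPM in shDis3l2. In CPM the lines were close at d0, and of the late EBs only those of shDis3l2 at d12 were above the d0 value of their line. These CPM are not scaled between libraries, and the TMM scaling factor of shDis3l2 was 0.66 at d0 and 1.1 at d12. With scaling, the test over both lines called Sema6c lower in late EBs than at d0. The late difference between the lines was 2.14 ± 0.24 (SE), edgeR adjusted p = 0.00114.

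Sema6a, a transmembrane ligand of Plxna2 and Plxna4, was lower in late shDis3l2 EBs. It was at 2.33, 55.1, 84.3, 35.3, 56.5, 69.6 and 64.1 CPM in shLacZ and 1.59, 45.8, 100.1, 18.5, 27.3, 29.5 and 41.8 CPM in shDis3l2. Up to d4 neither line was the higher one on every day, and the shDis3l2 value was below the shLacZ value of the same day on 4 of 4 late days (-0.97 ± 0.11 (SE), edgeR adjusted p = 0.00109). Sema4c, a Plxnb2 ligand, had the highest median level of these classes and was at 1.58, 21, 44.2, 38.7, 43.2, 51 and 69.9 CPM in shLacZ and 0.906, 19.6, 60.9, 55, 74, 74.1 and 102 CPM in shDis3l2. Its difference was small and steady, at 0.59 ± 0.08 (SE), edgeR adjusted p = 0.00189. Of the length of Sema4c, 7.27% overlaps an exon on the opposite strand, and whether counting used strand was not given in the sources used here. Sema4a, known from its role in T cells, and its relatives Sema4b and Sema4g went the other way, with log2 differences of -1.25 ± 0.20 (SE), edgeR adjusted p = 0.00388 for Sema4a, -0.56 ± 0.09 (SE), edgeR adjusted p = 0.00345 for Sema4b and -0.76 ± 0.12 (SE), edgeR adjusted p = 0.004 for Sema4g. Sema4d was also lower (-0.74 ± 0.24 (SE), edgeR adjusted p = 0.0445), but did not pass without d6, d8 or d10 (adjusted p 0.081, 0.16 and 0.176) or without scaling between libraries (0.0512). Sema6d, a Plxna1 ligand of the heart tube, was at 6.09, 16.3, 26.4 and 71.1 CPM in shLacZ and 23, 75.3, 39.1 and 46.2 CPM in shDis3l2 from d6 to d12. It was higher in shDis3l2 on 3 days and lower at d12, and was not called (0.96 ± 0.46 (SE), edgeR adjusted p = 0.141), while without d12 the adjusted p was 0.0115. Sema4f, Sema6b and Sema7a were not called either, and stayed at or below 9.08 CPM in every library.

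Both neuropilins, which carry class 3 semaphorins and also bind vascular endothelial growth factor, were higher in the late shDis3l2 EBs. Nrp2 was at 25.6, 20.7, 154, 204, 154, 79 and 102 CPM in shLacZ and 19.5, 13.3, 114, 285, 377, 204 and 171 CPM in shDis3l2. The shLacZ line was the higher one up to d4 and the lower one from d6 on, with a difference of 0.96 ± 0.16 (SE), edgeR adjusted p = 0.00405. Nrp1 was at 0, 7.77, 28.6, 191, 165, 93.8 and 145 CPM in shLacZ and 0.151, 5.19, 15.3, 297, 425, 411 and 182 CPM in shDis3l2. The lines differed most at d10, by 4.38-fold, and least at d12, by 1.26-fold (95% intervals 4.07 to 4.72 and 1.18 to 1.35, counting error only). Its late difference was 1.10 ± 0.28 (SE), edgeR adjusted p = 0.0207, and it was 1.01 with an edgeR adjusted p of 0.101 without d8 and 0.77 with an edgeR adjusted p of 0.0508 without d10. The 7 endothelial markers, measured because vessels express neuropilins, summed to between 140 and 297 CPM in shLacZ and between 107 and 212 CPM in shDis3l2 over the same days. The sum was higher in shDis3l2 at d6 and lower at d8, d10 and d12. Emcn was called higher (1.39 ± 0.20 (SE), edgeR adjusted p = 0.00262) and Sox17 lower (-1.06 ± 0.12 (SE), edgeR adjusted p = 0.00134), and the other endothelial markers were not called. Kdr, not among these markers but in the list of linked genes below, was called higher (1.61 ± 0.36 (SE), edgeR adjusted p = 0.0127). Of that list Vegfa (-0.11) and Vegfc (0.88) were not called, with edgeR adjusted p of 0.47 and 0.0509.

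Plexins are the signalling receptors for semaphorins, and 5 of the 8 tested were higher and 1 was lower. Plxna4, a receptor of Sema3a and Sema6a in axons, was at 0.201, 2.01, 13, 8.42, 16.8, 9.08 and 12.6 CPM in shLacZ and 0.189, 1.59, 14.5, 31.6, 43.1, 46.4 and 29.8 CPM in shDis3l2. Neither line was the higher one on all of d0, d2 and d4, and the late ranges did not overlap (1.68 ± 0.20 (SE), edgeR adjusted p = 0.00128). Plxnd1, a receptor of Sema3e in endothelium, was at 1.1, 4.09, 13, 43, 42.4, 25.8 and 30.4 CPM in shLacZ and 0.642, 2.34, 13.7, 81.1, 65, 41 and 53.8 CPM in shDis3l2. It peaked at d6 in both lines and was higher in shDis3l2 on 4 of 4 late days (0.75 ± 0.08 (SE), edgeR adjusted p = 0.00107). Plxna1, the plexin with the highest median level, was at 42.8, 347, 324, 261, 330.1, 445 and 419 CPM in shLacZ and 27.2, 281, 284, 211, 241, 284 and 303 CPM in shDis3l2. It was lower in shDis3l2 on each of the 7 days, and the late difference was -0.48 ± 0.07 (SE), edgeR adjusted p = 0.00302. Of its length 10.7% overlaps an antisense gene. Plxna3 passed at 1.10 ± 0.19 (SE), edgeR adjusted p = 0.00522. Plxna2 (0.87 ± 0.20 (SE), edgeR adjusted p = 0.0135) and Plxnb2 (0.38 ± 0.10 (SE), edgeR adjusted p = 0.0246) passed over the 4 days, but without d8 their adjusted p was 0.0766 and 0.0976 and without d10 0.0638 and 0.107. Plxnb1 and Plxnc1 were not called, and Plxnb3, left out by the filter on low counts, never exceeded 0.401 CPM.

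**Figure D3:**
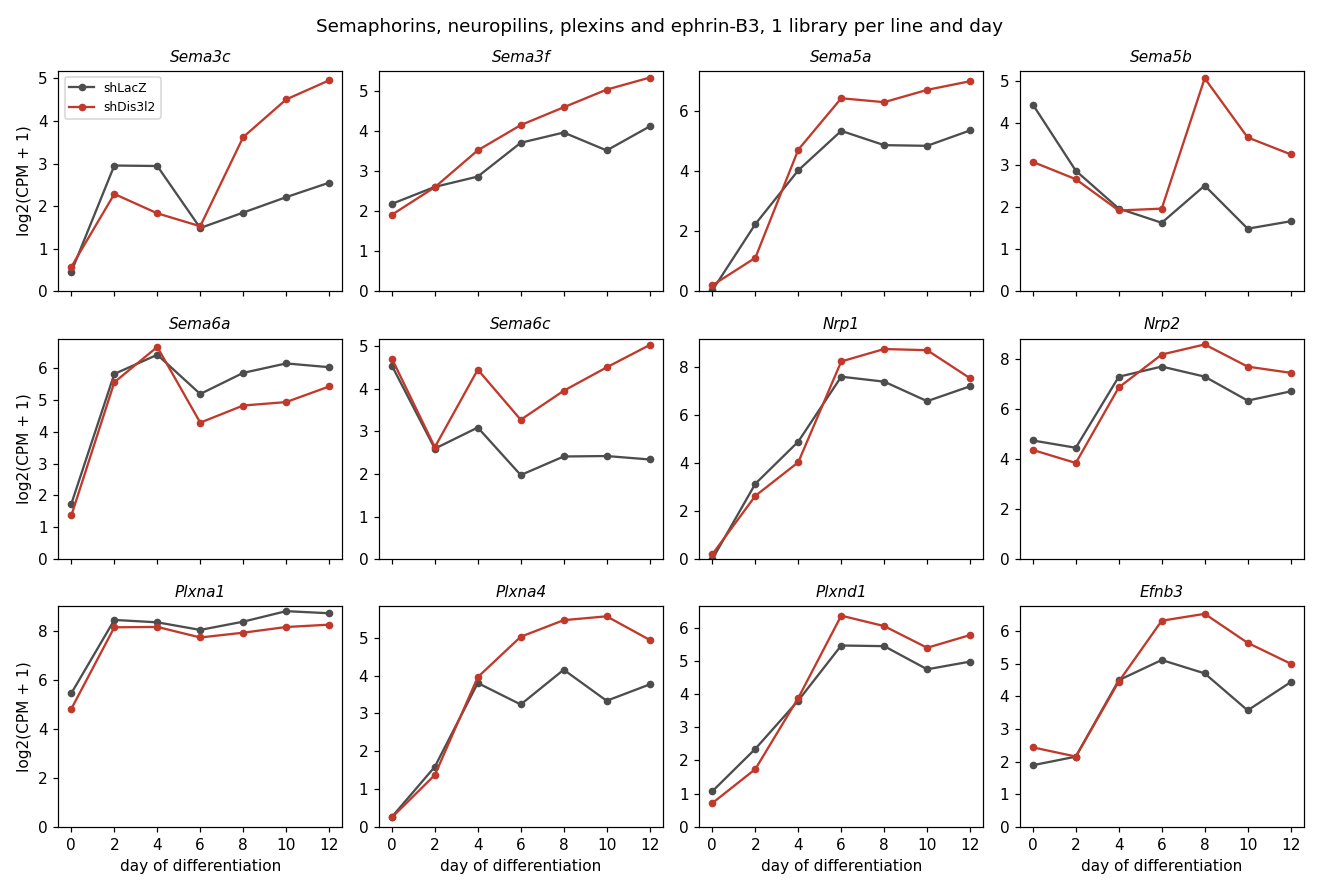
Log2(CPM + 1) by day of differentiation for 12 semaphorins, neuropilins, plexins and ephrin-B3, with shLacZ in grey and shDis3l2 in red and 1 library per point. In Sema3c, Sema5b and Nrp2 the red line crosses from below to above between d4 and d8, whereas in Sema6a and Plxna1 it lies below on 4 of 4 days from d6.

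Among the ephrins, Efnb3, a midline barrier ligand of the spinal cord, differed most. It was at 2.71, 3.45, 21.6, 33.7, 25.1, 10.9 and 20.6 CPM in shLacZ and 4.42, 3.46, 20.9, 78.9, 91.5, 48.9 and 31.1 CPM in shDis3l2. The lines were near one another at d2 and d4, and shDis3l2 was higher on each late day, by 4.49-fold at d10 and 1.51-fold at d12 (1.45 ± 0.24 (SE), edgeR adjusted p = 0.00452). Efnb1, a ligand of tissue boundaries with the highest median level of its class, was at 3.01, 4.02, 15, 79.3, 114, 107 and 106 CPM in shLacZ and 2, 3.13, 12.4, 65.8, 172, 135 and 99.4 CPM in shDis3l2. Its late difference was 0.14 ± 0.15 (SE), edgeR adjusted p = 0.485, with shDis3l2 higher on 2 of 4 days. Efnb2 was not called (0.20 ± 0.10 (SE), edgeR adjusted p = 0.161).

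Efna5, a topographic cue of retinal axons, was at 0.451, 7.05, 14.1, 15.9, 12.5, 11.7 and 21.8 CPM in shLacZ and 0.529, 4.63, 16.9, 21, 26.6, 28 and 32.3 CPM in shDis3l2. It was higher in shDis3l2 on 4 of 4 late days (0.81 ± 0.16 (SE), edgeR adjusted p = 0.00893), and was 0.72 with an edgeR adjusted p of 0.056 without d8. Efna2 was at 5.92, 3.53, 12.7, 11, 8.87, 7.26 and 10.7 CPM in shLacZ and 3.32, 3.46, 20.5, 13.1, 18.4, 15.1 and 17.6 CPM in shDis3l2. The late ranges did not overlap (0.76 ± 0.17 (SE), edgeR adjusted p = 0.0129), but Efna2 did not pass without d8 or without d10. The difference was 0.66 with an edgeR adjusted p of 0.0754 without d8 and 0.67 with an edgeR adjusted p of 0.0673 without d10. Efna4, the most abundant ephrin-A per length, was at 47, 14.2, 28.7, 45.5, 34.8, 33.9 and 34.5 CPM in shLacZ and 36.3, 12.8, 37.5, 27.4, 28.8, 32.8 and 36 CPM in shDis3l2. It dipped at d2 in both lines and its late difference was -0.26 ± 0.14 (SE), edgeR adjusted p = 0.176. Of the length of Efna4, 10.5% overlaps an antisense gene. Efna1 and Efna3 were not called, with edgeR adjusted p of 0.841 and 0.518.

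EphA receptors bind ephrin-A ligands, and in this class the lines parted furthest, with 4 of 7 receptors tested higher and 2 lower in shDis3l2. The 250 bases before the RefSeq start of 5 receptors, those with the largest called late differences, are printed because these differences had opposite directions. They were chosen after their values were seen. They come from RefSeq on GRCm38.p6, which held promoters for 46 of the 52 members, are written 5′ to 3′ on the strand of the gene, and carry in capitals each match to GGGCGG, the GC box, or CACCTG, an E-box, on either strand. Matches may overlap, as at 1 place in Epha8.
Epha8 (chr4:136956817-136957066, minus strand): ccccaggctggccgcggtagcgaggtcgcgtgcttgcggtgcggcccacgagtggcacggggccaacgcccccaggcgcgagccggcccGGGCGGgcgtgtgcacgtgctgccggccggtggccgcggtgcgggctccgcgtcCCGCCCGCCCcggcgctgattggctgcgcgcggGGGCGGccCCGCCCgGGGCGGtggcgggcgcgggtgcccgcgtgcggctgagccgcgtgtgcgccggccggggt
Epha3 (chr16:63864176-63864425, minus strand): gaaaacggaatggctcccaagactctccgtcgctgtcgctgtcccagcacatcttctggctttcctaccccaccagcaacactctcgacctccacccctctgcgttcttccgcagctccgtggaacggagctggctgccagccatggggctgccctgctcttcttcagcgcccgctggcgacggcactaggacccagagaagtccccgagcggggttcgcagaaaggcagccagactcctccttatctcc
Epha7 (chr4:28812881-28813130, plus strand): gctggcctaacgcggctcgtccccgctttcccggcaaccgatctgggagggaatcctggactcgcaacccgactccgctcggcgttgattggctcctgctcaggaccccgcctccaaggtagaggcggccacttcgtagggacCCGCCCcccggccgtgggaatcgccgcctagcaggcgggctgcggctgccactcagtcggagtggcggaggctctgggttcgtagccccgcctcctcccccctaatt
Epha1 (chr6:42373269-42373518, minus strand): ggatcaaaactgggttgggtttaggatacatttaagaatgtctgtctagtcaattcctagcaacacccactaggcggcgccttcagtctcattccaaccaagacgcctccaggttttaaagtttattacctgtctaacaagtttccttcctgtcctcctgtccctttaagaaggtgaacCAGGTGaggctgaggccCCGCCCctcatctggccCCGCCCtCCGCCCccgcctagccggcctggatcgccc
Epha2 (chr4:141300971-141301220, plus strand): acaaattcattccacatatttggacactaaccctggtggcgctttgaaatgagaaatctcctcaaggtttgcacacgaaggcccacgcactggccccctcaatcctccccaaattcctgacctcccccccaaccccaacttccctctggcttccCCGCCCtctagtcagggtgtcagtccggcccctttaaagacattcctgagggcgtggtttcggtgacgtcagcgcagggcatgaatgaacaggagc

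The window of Epha8 held 6 matches to GGGCGG and 84.0% G and C, that of Epha1 3 matches and 54.4%, those of Epha2 and Epha7 1 match each, and that of Epha3 none. CACCTG was found once, in Epha1. Over the 46 members GGGCGG was found in 76.1% of windows, against 42.6% of 21262 windows of protein-coding genes, and CACCTG in 13% against 16.9%. The median content of G and C was 64.6% in the members and 55.6% in all, so the share with GGGCGG was read over windows of unequal composition. These are matches of letters, and no binding was measured.

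Epha8, a neural EphA receptor, was at 0, 5.27, 1.81, 0.0752, 1.01, 2.3 and 2.28 CPM in shLacZ and 0.0378, 2.48, 2.32, 0.0942, 6.31, 30.3 and 57 CPM in shDis3l2. Both lines had passed a first small peak at d2 and had come down to 1 read each at d6, after which shDis3l2 was 6.27-fold higher at d8, 13.2-fold at d10 and 25.0-fold at d12 (95% interval 16.5 to 39.7, counting error only). The fitted late difference was 3.70 ± 0.37 (SE), edgeR adjusted p = 0.000856. Epha7, whose signal helps to close the neural tube, was at 0.426, 6.67, 21.2, 6.46, 12.4, 13.8 and 18.9 CPM in shLacZ and 0.378, 5.98, 29.3, 15, 81.9, 110.3 and 93 CPM in shDis3l2. The lines were alike up to d2, and shDis3l2 was higher on each of the 4 late days (2.37 ± 0.26 (SE), edgeR adjusted p = 0.00109). Epha3, a receptor of mesenchyme and heart cushions, was at 1.13, 4.97, 4.48 and 3.97 CPM in shLacZ and 1.13, 18.2, 77.8 and 61.2 CPM in shDis3l2 from d6 to d12. It was equal at d6, 3.65-fold higher at d8, 17.4-fold at d10 and 15.4-fold at d12. The late difference was 2.93 ± 0.55 (SE), edgeR adjusted p = 0.00677, and it was 2.36 with an edgeR adjusted p of 0.0558 without d10. Epha4, a receptor of axon tracts that also binds ephrin-B, was at 95.5, 73.7, 55.8 and 63 CPM in shLacZ and 143, 111, 124 and 118 CPM in shDis3l2, with no overlap between the lines (0.79 ± 0.11 (SE), edgeR adjusted p = 0.00229). Epha5 was at 1.35, 0.651, 0.363 and 0.595 CPM in shLacZ and 0.565, 1.22, 4.17 and 7.87 CPM in shDis3l2 and was not called (1.71 ± 0.76 (SE), edgeR adjusted p = 0.117), while without d6 the adjusted p was 0.00929. Epha10 did not pass the filter on low counts here and stayed at or below 1.92 CPM in every library.

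Epha1 and Epha2, receptors of epithelia, and Epha2 also of ESCs, were the EphA genes that were lower in shDis3l2. Epha1 was at 0.652, 94.6, 228, 35.7, 52.4, 76 and 46.4 CPM in shLacZ and 0.264, 77.6, 313, 11.6, 18.9, 17.2 and 22.8 CPM in shDis3l2. It was nearly silent in the stem cells and peaked at d4 in both lines, where shDis3l2 was the higher, and all 4 late shDis3l2 values lay below all 4 of shLacZ (-1.58 ± 0.17 (SE), edgeR adjusted p = 0.000973). Of the length of Epha1, 6.01% overlaps an exon of Zyx on the opposite strand. Epha2 was at 54.2, 106, 139.6, 63.4, 74.6, 89.5 and 67.9 CPM in shLacZ and 39.9, 91.6, 109.6, 23.1, 33.3, 35.1 and 36.1 CPM in shDis3l2. It was lower in shDis3l2 on each of the 7 days, and the gap widened from d6 with no overlap (-1.23 ± 0.10 (SE), edgeR adjusted p = 0.000509). The lower visceral endoderm and pluripotency markers and the higher mesenchyme markers of shDis3l2 went with these opposite differences, and their part was not tested.

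**Figure D4:**
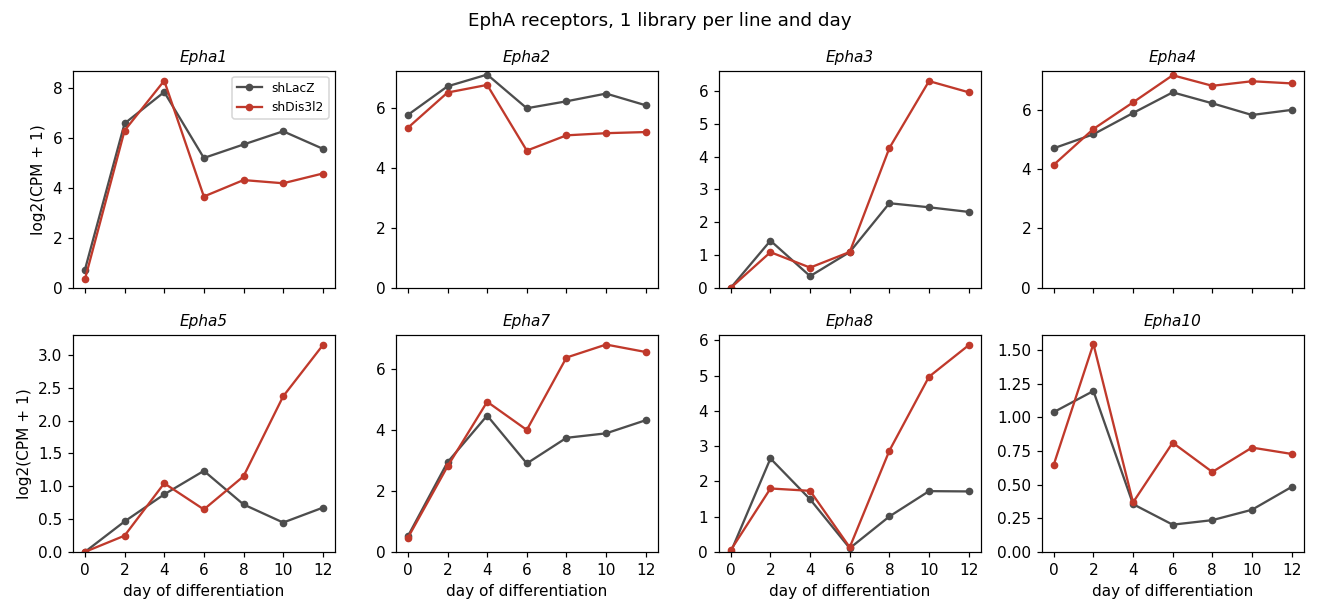
Log2(CPM + 1) of the 8 EphA receptors by day of differentiation, shLacZ in grey and shDis3l2 in red, 1 library per point. At d12 Epha8 stood at 57.0 CPM in shDis3l2 and 2.28 in shLacZ and Epha3 at 61.2 and 3.97, whereas Epha1 and Epha2 lay lower in shDis3l2 from d6 on.

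EphB receptors bind ephrin-B ligands, and 1 of the 5, Ephb3, passed the test between the lines. It was at 42.8, 20.2, 34.3, 55.8, 59, 99.3 and 160.4 CPM in shLacZ and 31.5, 15.7, 28.7, 39, 46.8, 66.1 and 97.4 CPM in shDis3l2. Values were higher on each later day from d2 to d12 in both lines, and shDis3l2 was the lower on each of the 7 days, with a late difference of -0.55 ± 0.08 (SE), edgeR adjusted p = 0.00314. Ephb4, the venous receptor of Efnb2, was at 57.2, 33.7, 66.4, 83.1, 91.9, 114 and 119 CPM in shLacZ and 34.6, 29.1, 94.4, 102, 122, 115 and 134 CPM in shDis3l2. The lines were within 1.33-fold on each late day (0.21 ± 0.08 (SE), edgeR adjusted p = 0.0798). Ephb2 was also higher in shDis3l2 on 4 of 4 late days and not called (0.23 ± 0.08 (SE), edgeR adjusted p = 0.0697), and Ephb1 and Ephb6 had edgeR adjusted p of 0.196 and 0.136.

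Whether the difference between the lines itself moved from d0, d2 and d4 to d6 to d12 was tested over all 14 libraries. It moved up for 9 of 51 members and down for 5 (edgeR quasi-likelihood test, day and line in the model, Benjamini-Hochberg adjusted p under 0.05), against 4.85% and 5.24% of the 20050 genes tested. The largest were Epha8 (4.01 ± 0.67 (SE), edgeR adjusted p = 0.00899), Sema3c (2.64 ± 0.60 (SE), edgeR adjusted p = 0.0225), Sema5b (2.58 ± 0.52 (SE), edgeR adjusted p = 0.0148), Epha7 (2.10 ± 0.38 (SE), edgeR adjusted p = 0.0113) and, downwards, Epha1 (-1.65 ± 0.30 (SE), edgeR adjusted p = 0.0107). Without d2 1 member moved up and 2 moved down, and without d8 or d10 4 moved up and 2 down. With at least 1 day left out, 11 of the 14 calls were lost. Calls over all genes fell too, from 972 up and 1051 down to 315 and 209 without d2. They were 431 and 296 without d8, and 363 and 263 without d10. Epha8 was 3.12 with an edgeR adjusted p of 0.0903 and Epha7 1.93 with an edgeR adjusted p of 0.0679 without d2. Sema3c was 2.61 with an edgeR adjusted p of 0.101 without d2, 2.25 with an edgeR adjusted p of 0.0707 without d4, 2.59 with an edgeR adjusted p of 0.0703 without d8 and 2.40 with an edgeR adjusted p of 0.0823 without d10. Sema5b was 2.22 with an edgeR adjusted p of 0.056 without d0, 2.81 with an edgeR adjusted p of 0.0522 without d2, 2.23 with an edgeR adjusted p of 0.0588 without d8 and 2.38 with an edgeR adjusted p of 0.0532 without d10. Epha1, Epha2 and Nrp2 passed with each of the 7 days left out in turn.

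Genes that work with these ligands and receptors were counted from 2 lists. Both were chosen with earlier results of these data known, so the counts describe these lists only. Of 38 genes linked to these receptors (intracellular partners, coreceptors, adhesion molecules, vascular endothelial growth factors and the sheddase Adam10), 16 were higher and 3 lower in shDis3l2 from d6 to d12, against 19.6% and 18.7% of all genes, with a median log2 difference of 0.34 against 0.02 over all genes. Dpysl2 and Dpysl3, collapsin response mediators that act below semaphorin receptors, were higher by 1.32 ± 0.12 (SE), edgeR adjusted p = 0.000592, and by 1.24 ± 0.08 (SE), edgeR adjusted p = 0.0003. Of the other mediators listed, Dpysl4 was also called higher (1.67 ± 0.34 (SE), edgeR adjusted p = 0.00914). Crmp1 (0.36 ± 0.47 (SE), edgeR adjusted p = 0.58) and Dpysl5 (-0.73 ± 0.32 (SE), edgeR adjusted p = 0.111) were not called. Farp1 and Farp2, exchange factors that bind plexins, were higher by 0.84 ± 0.08 (SE), edgeR adjusted p = 0.000866, and by 1.04 ± 0.15 (SE), edgeR adjusted p = 0.00247. The 3 lower were Chn2, which inactivates Rac (-0.93 ± 0.17 (SE), edgeR adjusted p = 0.00674), Gipc1, which binds the tail of Nrp1 (-0.33 ± 0.10 (SE), edgeR adjusted p = 0.036), and Met (-0.57 ± 0.15 (SE), edgeR adjusted p = 0.0228). Of 21 tested netrins, Slits, their receptors and relatives, 8 were higher and 2 lower, against the same shares of all genes. The higher ones included Slit2 (1.37 ± 0.16 (SE), edgeR adjusted p = 0.00144), Slit3 (1.79 ± 0.13 (SE), edgeR adjusted p = 0.000416) and Robo2 (0.81 ± 0.09 (SE), edgeR adjusted p = 0.00107), a Slit receptor, and the lower ones were Ntn1 (-1.40 ± 0.29 (SE), edgeR adjusted p = 0.00987) and Ntn4 (-1.24 ± 0.21 (SE), edgeR adjusted p = 0.00442). The same 4 days and libraries carry these tests.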

How the data were processed

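PolyA RNA reads were mapped by the authors with Subread against GRCm38 of Ensembl release 88, featureCounts assigned them to genes, and the deposited counts are whole reads without normalization. The deposited CPM, made by the authors with edgeR, are per 1000000 reads of the listed protein-coding genes and carry a prior count of 0.25. The columns named shm5 were taken as shDis3l2, the only other line in the labels. CPM and RPKM were recomputed here over all 50686 genes counted, with the deposited gene lengths.

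Tests were quasi-likelihood F tests of edgeR 4.0.16 under R 4.3.3 after filterByExpr and TMM scaling, with p-values adjusted by Benjamini-Hochberg over all genes tested and a threshold of 0.05, and DESeq2 1.42.0 was an alternative. SE is the log2 difference over the square root of F. The other alternatives were library totals, DESeq2 size factors, no filter, and each day left out, with other fold and CPM limits for single days. The scripts were tested on simulated data. Daily folds carry 95% Clopper-Pearson intervals of the ratio of reads. Without molecular identifiers PCR reads are not separate molecules, and both intervals and floors express only counting error. Python 3.11.15 ran the other steps.

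Members and lists were chosen with earlier results of these data known. Values in all libraries are given for up to 3 members per role group called from d6 to d12 with at least 5 CPM in 1 library and the smallest adjusted p, for the member of each group with the highest median RPKM, and for the 5 largest called changes of the line difference. In 13 members exons overlap another gene, and use of strand in counting was not given in the sources used here.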

Additional observations from a re-analysis of the deposited data

Results flagged for a closer look

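The difference between the lines moved between d0 to d4 and d6 to d12 for 14 members by the interaction term of the edgeR quasi-likelihood test (adjusted p under 0.05), a test of the difference itself. On the log2 scale the difference moved up by 4.01 for Epha8, 2.64 for Sema3c, 2.58 for Sema5b, 2.10 for Epha7, 1.63 for Plxna4, 1.44 for Sema6c, 1.28 for Nrp2, 1.15 for Plxna3 and 1.02 for Plxnd1. It moved down, with values of -1.65 for Epha1, -1.06 for Epha2, -0.98 for Sema6a, -0.84 for Sema4g and -0.64 for Sema4b. Of the 14, only Epha1, Epha2 and Nrp2 passed under each alternative fit run. The adjusted p of Sema4b and Sema4g was 0.126 and 0.118 without scaling between libraries.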

How the results depend on the processing

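Each of the 31 members called between the lines from d6 to d12 kept its direction under the alternatives run, and 21 stayed past the threshold in all of them. Leaving out 1 day at a time gave 14 to 23 members higher and 8 to 9 lower. Over all genes it gave 1695 to 3440 higher and 1641 to 3237 lower. For the change of the line difference it gave 1 to 12 members up and 2 to 4 down, and 315 to 1169 of all genes up and 209 to 982 down. There no filter gave 18 members and 1788 of all genes up, and library totals 3 members and 415 of all genes down. Library totals gave 5 members falling from d0 to d6-d12 and 7 falling from d0 to d2, against 5191 and 4107 of all 20050 genes. The cause was not tested.

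Members at least 3-fold apart at d0 numbered 7 with no minimum CPM, 1 with a minimum of 5 CPM, 1 with TMM-scaled sizes and 0 with DESeq2 size factors. Over all protein-coding genes, 826 were higher and 1610 lower at d0 with no minimum, and 20 and 92 with 5 CPM. With TMM-scaled sizes 145 and 152 were, and with DESeq2 size factors 178 and 130. At d2 there were 0 members with a minimum of 5 CPM, where 3 of all genes were higher and 4 lower. With a fold limit of 2 there were 2 members at d2, 4 at d4, 10 at d6 and 22 at d8 (18 higher and 4 lower), and 5 lower at d10 and 1 lower at d12. Of all genes, 73 were then higher and 158 lower at d2 (13171 compared), and 208 and 670 at d4 (13010 compared). At d6 909 and 1082 were (12983 compared) and at d8 1576 and 1149 (13462 compared). At d10 1203 of 13768 were lower, and at d12 602 of 13982. With no minimum CPM 1 member was lower at d8, and 1636 of all genes.

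Signs turned only in members that were not called. With 1 day left out, the late log2 difference ran from -0.25 to 0.14 in Efna1, -0.015 to 0.27 in Efnb1, -0.19 to 0.27 in Plxnc1, -0.033 to 0.19 in Sema3e and -0.43 to 0.037 in Sema7a. The change of the line difference ran from -0.44 to 0.62 in Efna1, -0.31 to 0.21 in Ephb1, -0.0019 to 0.28 in Plxnb1, -0.31 to 0.10 in Sema6b and -0.56 to 0.61 in Sema6d. With library totals it was 0.10 in Ephb1, 0.047 in Sema6b and 0.049 in Sema6d, and with DESeq2 0.0895 in Sema6d. Library totals turned the change to d6-d12 of Efna3 (0.25) and Epha2 (0.052) and the change to d2 of Efna1 (0.30), Efnb1 (0.50), Efnb3 (0.051), Ephb2 (0.35) and Ephb6 (0.38). For Sema3f the change to d2 was -0.016 with DESeq2 and -0.0157 with its size factors in edgeR. DESeq2 gave no adjusted p for the change of the line difference of Epha10.

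Summed over the members, deposited CPM were 1.11 to 1.33 times those used here, since they leave out reads on unlisted genes and add a prior count of 0.25, which weighs more on members with few reads (Epha8 in shDis3l2 at d0, 0.0627 against 0.0378). One library per line and day limits each daily fold to counting error, and 3 reads are 0.418 CPM in the shallowest library.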
